A study of Mus musculus with 4 samples.

Results

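The transcripts of the cytotoxic granule and of lymphocyte effector function were followed by single-cell RNA sequencing (scRNAseq) of mouse adipose tissue (AT). The genes were taken by symbol as Gzma, Gzmb, Gzmk, Gzmm, Prf1, Nkg7, Ctsw, Ifng and Fasl, and all 9 were found among the 32290 features of the count tables. There were 4 libraries, 1 for each of 4 groups: WT and KO cells from subcutaneous (SC) and from visceral intraperitoneal (IP) AT. WT mice were Tie2e-cre; TERT+/+; mTmG, and KO (EC-Tert-KO) mice were Tie2e-cre; TERTfl/fl; mTmG, so that both genotypes carried the Cre transgene and the reporter. All mice were male, 7 months old and had been on a high-fat diet (HFD) for 5 months. The number of mice behind a library was not given in the sources used here, and the labels name both cells and nuclei. With 1 library per group there was no replicate and no test, and each 95% interval below covers the counting error of unique molecular identifiers (UMIs) or cells only.

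The comparison of KO with WT asks how knockout of Tert by Tie2e-cre goes with the effector transcripts of lymphocytes in the 2 depots. That of IP with SC asks how far these differ by depot. Tie2e-cre drives recombination from an endothelial regulatory sequence, and mTmG turns on GFP where Cre has acted. GFP transcripts were seen in 57.1 to 75.8% of the cells of the NK, CD8, CD4 and gamma delta T classes in WT and in 18.2 to 50.4% in KO. They were not particular to these classes. Over all kept cells they were seen in 54.6 and 48.2% in SC and IP of WT and in 35.6 and 25.3% in those of KO. Over all kept cells Tert itself gave 3 and 2 UMIs in the SC libraries of WT and KO, and 8 and 9 in those of IP, so that its loss could not be checked in these tables.

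The libraries held 700 to 2115 barcodes and 10015201 to 15533961 UMIs, and 4113 cells were kept. KO SC and WT IP shared 93 barcodes, with a median of 601 UMIs in KO SC and 35392 in WT IP. Of these barcodes 71 in KO SC and 75 in WT IP were stromal. Only 1 CD8 cell of KO SC and 1 NK cell of WT IP were among them, and no member ratio between libraries left its interval when the 95 barcodes shared by any pair of libraries were left out.

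Lymphocytes were put into classes by marker UMIs. NK cells carried Ncr1, Klrb1c or Klre1 without CD3 or Trac, CD8 and CD4 T cells carried CD3 with 1 coreceptor, and gamma delta T cells carried CD3 with Trdc and constant gamma chains. In the order WT SC, KO SC, WT IP and KO IP, there were 21, 11, 58 and 14 NK cells. CD8 cells numbered 189, 489, 37 and 26, CD4 cells 127, 319, 33 and 29, and gamma delta T cells 31, 115, 19 and 37. Values are given below in this order of libraries throughout. The NK class was checked with Eomes, which its gate did not use. It was seen in 38.1, 54.5, 20.7 and 42.9% of the cells. The rest had no Eomes UMI, and whether the class was of 1 cell type was not tested. B cell and myeloid markers, which the class rules used against mixed barcodes, were at 0 in every library. Summed B cell markers lay at 0 to 14.4 CPM (UMIs of a gene per 1000000 UMIs of its class), myeloid markers at 0 to 6.15 CPM and stromal markers at 0 to 42.3 CPM over the 16 combinations of class and library. Their part in the results was not tested.

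Killer lymphocytes keep serine proteases, the granzymes, in secretory granules together with perforin, a pore-forming protein that lets them enter the target cell. The granzymes cut different substrates: granzyme B starts apoptosis after aspartate residues, while granzymes A and K cut after basic residues and are known for inflammatory roles as well. Fas ligand kills through a surface receptor, and interferon gamma is the cytokine by which NK and T cells activate macrophages, a well-known feature of obese AT.

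Gzma and Gzmk are neighbours on chromosome 13 and code for proteases of like specificity. Gzma lies at chr13:113093825-113100981 and Gzmk at chr13:113171608-113225908, both on the minus strand of GRCm38, with 70626 bases and 3 non-coding genes between them. Gzmb lies on chromosome 14 (56258838-56262260, minus strand) and Nkg7 on chromosome 7 (43437073-43438249, plus strand). The promoters of these genes are shown because Gzma and Gzmk, though neighbours, differed in the cells that carried them, while Gzmb and Nkg7 were seen with Gzma in NK cells. Each runs 5′ to 3′ from 250 bases before to 50 bases after the RefSeq start (GRCm38.p6), and the capitals mark the core letters GGTGTGA of T-box factors and TGTGGT of RUNX factors on either strand, as TCACACC and ACCACA on the other. Of the 9 genes, 8 were matched to this table.
Gzma, chr13:113100932-113101231, minus strand: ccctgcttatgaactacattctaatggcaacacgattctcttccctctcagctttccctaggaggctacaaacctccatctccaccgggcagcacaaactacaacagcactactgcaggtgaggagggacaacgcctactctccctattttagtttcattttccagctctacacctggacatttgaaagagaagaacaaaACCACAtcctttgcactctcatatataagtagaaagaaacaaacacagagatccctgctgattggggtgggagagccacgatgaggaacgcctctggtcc
Gzmk, chr13:113180916-113181215, minus strand: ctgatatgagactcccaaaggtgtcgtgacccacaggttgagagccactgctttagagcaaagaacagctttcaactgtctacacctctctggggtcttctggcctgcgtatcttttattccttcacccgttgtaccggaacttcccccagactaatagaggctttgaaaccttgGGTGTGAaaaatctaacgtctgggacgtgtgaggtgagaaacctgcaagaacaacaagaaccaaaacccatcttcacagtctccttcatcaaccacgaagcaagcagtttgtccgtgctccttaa
Gzmb, chr14:56262285-56262584, minus strand: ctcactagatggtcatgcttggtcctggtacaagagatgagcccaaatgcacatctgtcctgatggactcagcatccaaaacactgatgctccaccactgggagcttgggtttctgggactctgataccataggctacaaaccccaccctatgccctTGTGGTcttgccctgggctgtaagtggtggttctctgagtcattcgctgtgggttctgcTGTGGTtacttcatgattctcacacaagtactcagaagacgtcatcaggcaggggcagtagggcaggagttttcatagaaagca
Nkg7, chr7:43436888-43437187, plus strand: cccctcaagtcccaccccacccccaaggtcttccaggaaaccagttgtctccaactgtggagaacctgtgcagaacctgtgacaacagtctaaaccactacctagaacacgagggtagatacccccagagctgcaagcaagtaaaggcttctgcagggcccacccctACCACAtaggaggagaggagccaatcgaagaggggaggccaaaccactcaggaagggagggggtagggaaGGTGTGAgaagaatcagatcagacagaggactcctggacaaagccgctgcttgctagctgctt
The T-box letters stood in the Gzmk and Nkg7 windows and the RUNX letters in those of Gzma, Gzmb and Nkg7. Over all members and any listed start, 3 of 8 held the T-box letters and 5 of 8 the RUNX letters, against 3.98% and 16.8% of 32851 promoters of the same length. These are matches of letters and say nothing of binding.

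Granzyme A was concentrated in NK cells. In that class its level was 6855 CPM (6496 to 7229), 3194 (2821 to 3602), 4639 (4463 to 4821) and 5211 (4792 to 5657). These levels came from 15 of 21, 8 of 11, 32 of 58 and 5 of 14 NK cells, or 71.4, 72.7, 55.2 and 35.7%. After every cell was thinned to 2000 UMIs the shares were 66.7, 63.6, 50 and 35.7%. In B cells, which should lack the transcript, 1 of 806 cells had a UMI at a median of 5339.5 UMIs per cell, and in stromal cells 1 of 790 at 18822.5. The medians of the NK class were 7235.5 to 8517 UMIs.

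In CD8 cells Gzma lay at 105, 12.3, 192 and 538 CPM, below NK cells in all libraries without overlap of the ranges. It rested on very few cells. The 219 UMIs of WT SC came from 1 of 189 CD8 cells, which had 23912 UMIs, 45 of CD3, 35 of CD8 and 0 of the NK markers, and which held all 9 members. In KO SC, 48 of 57 UMIs came from 1 cell. In KO IP 7 of 26 cells held 160 UMIs, and the cell with most, 90, also had 14 UMIs of NK markers. CD4 cells of KO SC had 39 Gzma UMIs and gamma delta T cells of KO SC 113, in each case in 1 cell.

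Granzyme B, the apoptosis-inducing granzyme, lay at 417, 180.1, 416 and 109.7 CPM in NK cells and was seen in 61.9, 45.5, 39.7 and 42.9% of them. In CD8 cells it was at 8.17 and 4.95 CPM in SC and at 85.2 and 178 CPM in IP. In gamma delta T cells it lay at 36.9, 58.5, 17.7 and 20.2 CPM, above the range of 0 to 3.85 CPM in CD4 cells. The ranges of NK and CD8 cells overlapped, with CD8 above NK cells in KO IP. No UMI of Gzmb was seen in 806 B cells or 790 stromal cells.

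Granzyme K followed a different order, CD8 over CD4, NK and gamma delta T cells, with overlap between all neighbours. NK cells held 1, 1, 2 and 2 UMIs in all, at 5.03, 12.0, 3.56 and 18.3 CPM. CD8 cells lay at 5.77 and 1.72 CPM in SC and at 130 and 182 CPM in IP. In IP, 16 of 37 WT and 11 of 26 KO CD8 cells had the transcript, and after thinning 16.2 and 19.2% had it. CD4 cells of SC held none (the floor of 3 counts was 2.31 CPM for WT and 1.21 CPM for KO), while those of IP held 5 and 18 UMIs in 4 and 3 cells.

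Granzyme M, which cuts after methionine and leucine, was sparse, and in SC its level in CD8 cells was above that in stromal cells. CD8 cells had it in 4.76, 4.91, 5.41 and 15.4% of cells, the last being 4 of 26 (4.36 to 34.9%). Stromal cells, which should lack it, had a UMI in 47 of 790 cells, or 5.95%, with 1.55 to 9.38% by library. B cells had it in 1.24%. By level, CD8 cells held 18 UMIs in WT SC (8.65 CPM, 5.13 to 13.7) and 32 in KO SC (6.89 CPM, 4.72 to 9.73). Stromal cells of the same libraries held 3 (1.67 CPM, 0.345 to 4.89) and 4 (2.39 CPM, 0.652 to 6.12), so that the intervals were apart in WT SC and overlapped in KO SC. In IP, stromal cells held 21 of 34 and 22 of 35 Gzmm UMIs, and CD8 cells 2 and 5.

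Perforin, coded by Prf1 (chr10:61297833-61304680, plus strand), lay at 573, 336, 375 and 256 CPM in NK cells. It was seen in 76.2, 45.5, 56.9 and 57.1% of them. CD8 cells were lower without overlap, at 24.0, 15.5, 55.9 and 43.7 CPM, and 22.2, 11.5, 27.0 and 26.9% of them had a UMI. CD4 and gamma delta T cells had at most 17.2 and 30.5 CPM.

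Nkg7, a granule membrane protein needed for exocytosis, was the member seen in most cells. It lay at 1891, 1453, 2070.5 and 1353 CPM in NK cells and was found in 95.2, 100, 94.8 and 92.9% of them. CD8 cells lay at 454, 311, 1059 and 1076 CPM and 89.4, 82.4, 97.3 and 88.5% of them had it. After thinning, 48.7 and 40.6% of CD8 cells in SC had it and 73.0 and 84.6% in IP. CD4 cells went from 9.24 and 3.64 CPM in SC to 659 and 319 CPM in IP. No B cell and 1 of 790 stromal cells held a UMI, so that none of these shares was near background.

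Cathepsin W, a cysteine protease of killer lymphocytes (Ctsw, chr19:5465043-5468507, minus strand), lay at 387, 228, 422 and 293 CPM in NK cells and at 159, 111, 149 and 168 CPM in CD8 cells. The ranges of both classes stood apart. CD4 cells were at 15.4, 16.2, 90.4 and 46.2 CPM and gamma delta T cells at 79.9, 42.6, 142 and 43.2 CPM.

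Among the effector ligands, Ifng (chr10:118441046-118445892, plus strand) lay at 372, 48.0, 276 and 430 CPM in NK cells, from 74, 4, 155 and 47 UMIs. KO SC stood apart at the low end, with Ifng in 2 of 11 cells. CD8 cells lay at 28.8, 3.88, 69.2 and 108 CPM. CD4 cells were at 11.5 and 12.5 CPM in SC and at 245 and 112 CPM in IP. In IP the order of CD4 and CD8 cells thus differed from that of the granzymes, since WT CD4 cells stood above WT CD8 cells.

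Fas ligand (Fasl, chr1:161780689-161788495, minus strand) lay at 277, 192, 205 and 128 CPM in NK cells. CD8 cells had 9.61 and 8.83 CPM in SC and 109 and 148 CPM in IP, and CD4 cells 27.7, 23.1, 108 and 88.5 CPM. The ranges of NK and CD8 cells overlapped.

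**Figure D1:**
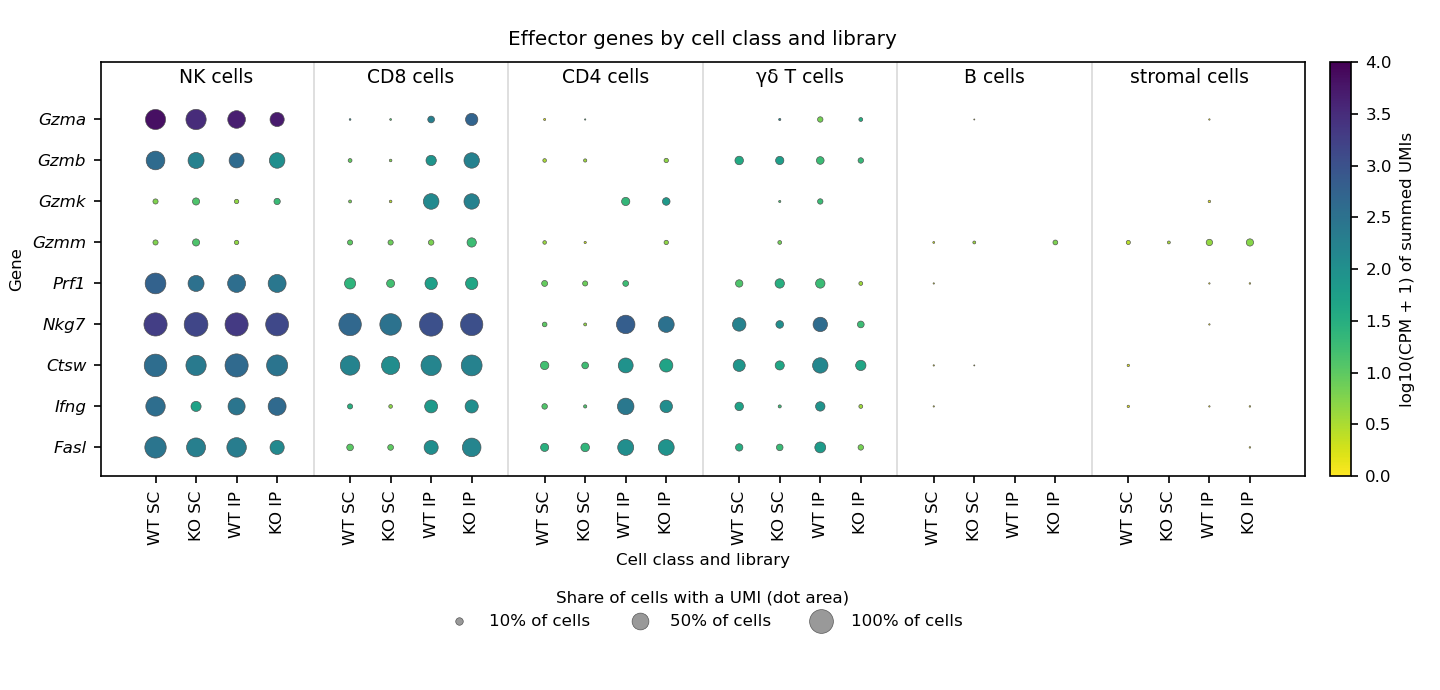
Level of each of the 9 genes (rows) in 4 lymphocyte classes and in B and stromal cells of the 4 libraries (columns). Dot colour is log10(CPM + 1) of the summed UMIs and dot area the share of cells with a UMI. Gzma was highest in NK cells (3194 to 6855 CPM), and Gzmk was highest in IP CD8 cells (130 and 182 CPM).

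NK cells supplied more of the Gzma and Prf1 UMIs than their number. NK cells were 2.17, 0.563, 8.63 and 2.70% of the kept cells and held 68.1, 49.1, 96.3 and 76.0% of the Gzma UMIs. They held 49.1, 17.3, 76.7 and 59.6% of the Prf1 UMIs. Nkg7 came mostly from CD8 cells in WT SC and KO SC, with 54.4 and 75.6%, and CD8 cells gave 18.8 and 48.9% in IP. CD8 cells held 80.0, 38.1, 73.1 and 64.3% of the Gzmk UMIs, and in KO SC 12 of 21 were in 1 gamma delta T cell. In IP NK cells held 2.99 and 2.38% of the Gzmk UMIs.

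Single NK cells carried many of the members at once. In NK cells the median number of members with a UMI was 6, 4, 5 and 4, and 18 of 21, 5 of 11, 35 of 58 and 5 of 14 cells held at least 5. In CD8 cells the medians were 2, 2, 3 and 4, and 3 of 189, 6 of 489, 9 of 37 and 10 of 26 held at least 5. Among IP CD8 cells with Gzmk, 10 of 16 also had Ifng in WT and 2 of 11 in KO. Every CD8 cell with Ifng also had Nkg7, which was 9, 12, 11 and 8 cells. In KO IP, 27 of 37 gamma delta T cells held no member.

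NK cells with Eomes, the factor of circulating NK cells, held less Ifng than those without in each library. The cells with Eomes numbered 8, 6, 12 and 6, under the minimum of 20 cells, and those without 13, 5, 46 and 8. The log2 ratio was -2.30 in WT SC (-3.76 to -1.27), -3.53 in WT IP (-6.91 to -1.97) and -1.94 for KO IP (-3.75 to -0.72), and in KO SC all 4 UMIs were in cells without Eomes. Few cells held much of the Ifng. In WT SC single cells held 28 and 21 of the 67 UMIs without Eomes, and in KO IP 13, 12 and 11 of 42. The Ifng ratios were not recomputed without them. For Gzma the same ratios were -0.02 and -0.18 in the SC libraries of WT and KO and 0.09 and 1.65 in those of IP. In KO IP, 1 cell with Eomes held 253 of the 347 UMIs. Without the NK cell with most Gzma UMIs in each library they were 0.40, 0.83, 0.51 and 0.12 (-0.24 to 0.47) in that order.

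**Figure D2:**
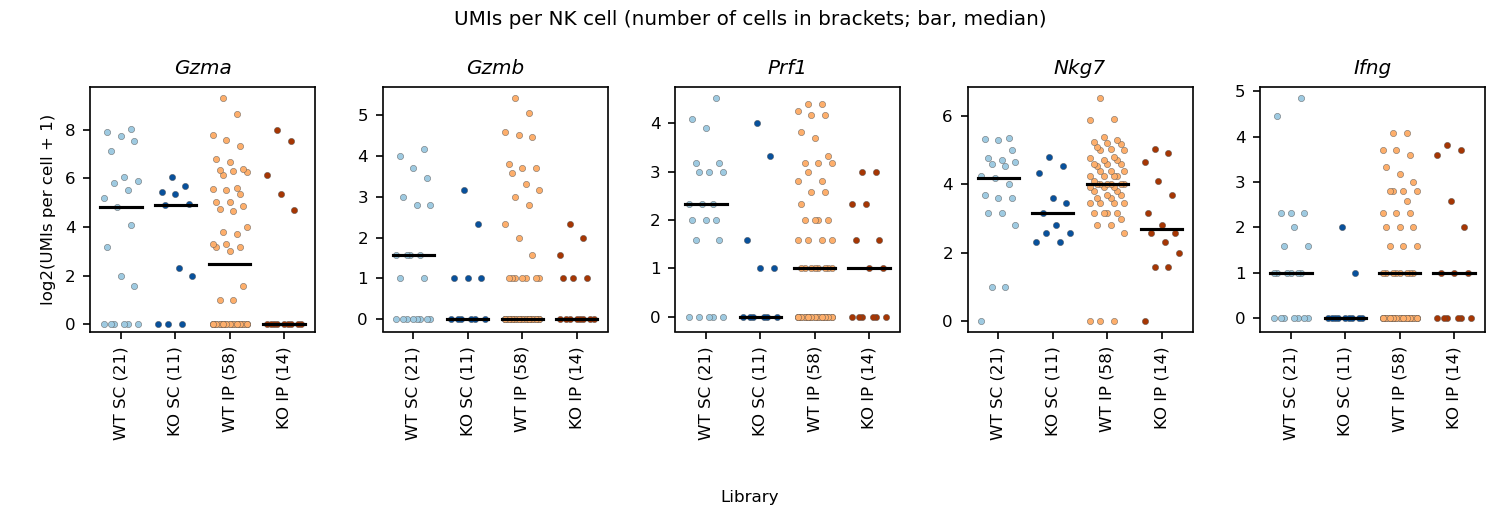
Each point is 1 NK cell, with log2(UMIs per cell + 1) of Gzma, Gzmb, Prf1, Nkg7 or Ifng on the y axis, the library on the x axis (21, 11, 58 and 14 cells) and the median as a bar. Cells without a UMI lie at 0, and KO SC has 2 of 11 cells with Ifng.

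In SC, the 7 members compared stood lower in NK cells of KO than of WT, 3 of them by at least 2-fold. The log2 ratio of KO to WT was -1.10 for Gzma (-1.30 to -0.91), -1.17 for Gzmb (-2.11 to -0.41) and -2.79 for Ifng (-4.87 to -1.54). Prf1 stood at -0.75 (-1.42 to -0.16), Ctsw at -0.74 (-1.57 to -0.02), Nkg7 at -0.38 (-0.69 to -0.08) and Fasl at -0.49 (-1.43 to 0.30). Of the members, 7 reached 20 UMIs over the pair of libraries, the minimum for a comparison. Those past 2-fold were Gzma, Gzmb and Ifng, while 16.2% of all genes so compared passed 2-fold in either direction. The median was -0.75 for the members and 0.09 for all genes. The 11 KO cells were under the minimum of 20 cells per class set at first. Without the cell with most UMIs Prf1 stood at -1.51, and with 1 UMI of the NK markers Ctsw stood at 0.04. With 1 CD3 UMI in place of 2 for a T cell, which left 9 KO NK cells, Gzma stood at -0.68 and Gzmb at -0.75, so that only Ifng passed 2-fold, and with cells weighted equally Gzma stood at -0.95. The KO cells also differed in markers. The naive markers Ccr7 and Lef1 summed to 432 CPM in KO and 45.3 in WT, with Ccr7 at 324 and 10.1. A UMI of either was seen in 45.5% of the KO cells and 33.3% of the WT cells. Cd3d had a UMI in 18.2% of KO cells and in none of WT, the NK receptor gene Klra8 stood at 516 and 116 CPM, and Itga1, a marker of tissue-resident cells, at 0 and 70.4 CPM. Their part in the result was not tested.

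In IP, NK cells of KO were lower than those of WT in Gzmb and Nkg7, while Gzma and Ifng were not lower. Gzmb stood at -1.87 (-2.90 to -1.09), Nkg7 at -0.61 (-0.87 to -0.37), Prf1 at -0.53 (-1.18 to 0.02) and Ctsw at -0.51 (-1.11 to 0.01). Gzma was at 0.17 (0.03 to 0.30) and Ifng at 0.65 (0.14 to 1.12). Of the 14 KO cells 1 held 253 of 570 Gzma UMIs, and without the cell with most UMIs in each library Gzma stood at -0.23. With 1 UMI of the NK markers instead of 2, Gzma stood at -0.52 and Ifng at -0.04. Of 7 members 1 was lower by at least 2-fold, against 20.9% of all genes in either direction, and the median was -0.53 against 0.00. Fasl stood at -0.63 (-1.59 to 0.13).

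In SC CD8 cells, with 489 KO and 189 WT cells the best covered comparison, every member stood below 0 in KO. Nkg7 was at -0.55 (-0.67 to -0.43), Ctsw at -0.52 (-0.72 to -0.32) and Prf1 at -0.64 (-1.17 to -0.08). Ifng was at -2.87 (-3.74 to -2.11), and Gzmk at -1.71 (-3.24 to -0.33) from 8 and 12 UMIs, or -0.64 without the cell with most UMIs in each library. Gzma was at -3.09, but its 219 WT UMIs came from 1 cell. Without the cell with most UMIs in each library, KO held 9 UMIs and WT none. Of 9 members 3 were lower by at least 2-fold, against 5.28% of all genes in either direction, and the median was -0.64 against -0.13. Gzmb, Gzmm and Fasl had intervals that held 0.

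The share of CD8 cells without a UMI of the naive markers Ccr7 or Lef1 was 6 of 189 in WT SC and 4 of 489 in KO SC. The 6 WT cells held 38 of 60 Ifng UMIs. Among cells with a naive marker, Ifng still stood at -1.45 (-2.44 to -0.49), Nkg7 at -0.48 (-0.60 to -0.36), Ctsw at -0.53 and Prf1 at -0.73 (-1.27 to -0.17). The difference of Ifng was smaller there. For Nkg7, Ctsw and Prf1 little could change, since the 6 WT cells held 67 of 945, 8 of 331 and 0 of 50 UMIs. Whether the makeup of the CD8 cells had a part in these differences was not tested.

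In IP CD8 cells Gzma and Gzmb were higher in KO by at least 2-fold. Gzma was at 1.48 (1.08 to 1.91), Gzmb at 1.06 (0.40 to 1.75) and Gzmk at 0.48 (-0.11 to 1.06), while Nkg7 was at 0.02 (-0.19 to 0.24). Of 8 members 2 were higher by at least 2-fold, against 15.3% of all genes in either direction, and Gzmb stood at 0.93 with median-of-ratios scaling. Cells without a naive marker were 8 of 37 in WT (9.83 to 38.2%) and 12 of 26 in KO (26.6 to 66.6%). These intervals overlap, and the median depth was 10098 UMIs per cell in WT and 6882.5 in KO. A UMI of the NK markers was seen in 13.5% of WT and 38.5% of KO cells. Whether the cells differed in kind was not tested. Among cells with a naive marker Gzma stood at -2.25 (-3.51 to -1.31) and Gzmb at 0.37 (-0.66 to 1.37), and the cells without one held 4 Gzma UMIs in WT and 151 in KO. In WT, 68 of the 72 Gzma UMIs were in cells with a naive marker.

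In CD4 cells of SC, Fasl was the highest member at 27.7 CPM in WT and 23.1 in KO (36 and 57 UMIs), and 1 of 6 was higher and 1 lower by at least 2-fold, against 6.71% of all genes. The higher one was Gzma at 3.79, from 39 UMIs of 1 cell, and the lower was Nkg7 at -1.32 (-2.77 to 0.03), or -0.93 without the cell with most UMIs in each library. In CD4 cells of IP, Nkg7 was at -1.04 (-1.45 to -0.65), Ifng at -1.12 (-1.83 to -0.47), Ctsw at -0.94 (-2.13 to 0.12) and Gzmk at 1.59 (0.20 to 3.47). That made 1 of 5 higher and 2 lower, against 10.6%. The Gzmk UMIs lay in few cells, with 18 in 3 of 29 cells of KO and 5 in 4 of 33 cells of WT. With cells weighted equally Nkg7 stood at -0.66 and Ifng at -0.83. Cells without a naive marker were 21 of 33 in WT and 16 of 29 in KO, and among them the interval of Nkg7 was -1.52 to -0.52 and Ifng was at -2.17 (-3.37 to -1.24).

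Gamma delta T cells of SC had Nkg7 at -0.71 (-1.21 to -0.20), Ctsw at -0.91 (-1.68 to -0.12) and Ifng at -1.43 (-2.55 to -0.32) in KO against WT. The kind of cell moved with it, as Il17a, the cytokine of one gamma delta subset, stood at 111 CPM with 22.6% of cells in WT and at 1468 CPM with 73.0% in KO, and Cxcr6 at 885 and 1798 CPM. Its part in the result was not tested. Gzma was seen only in KO, where 1 cell held 113 UMIs, and neither genotype held any without it. Prf1 was at 1.17. With that cell, 2 of 7 members were higher and 1 lower by at least 2-fold, against 15.1%. In IP, where 19 WT cells were under the minimum, Nkg7 was at -4.41 (-6.01 to -3.32), from 6 against 67 UMIs, and Ctsw at -1.70 (-2.75 to -0.73). Both of the 2 members compared were lower by at least 2-fold, against 14.2%.

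**Figure D3:**
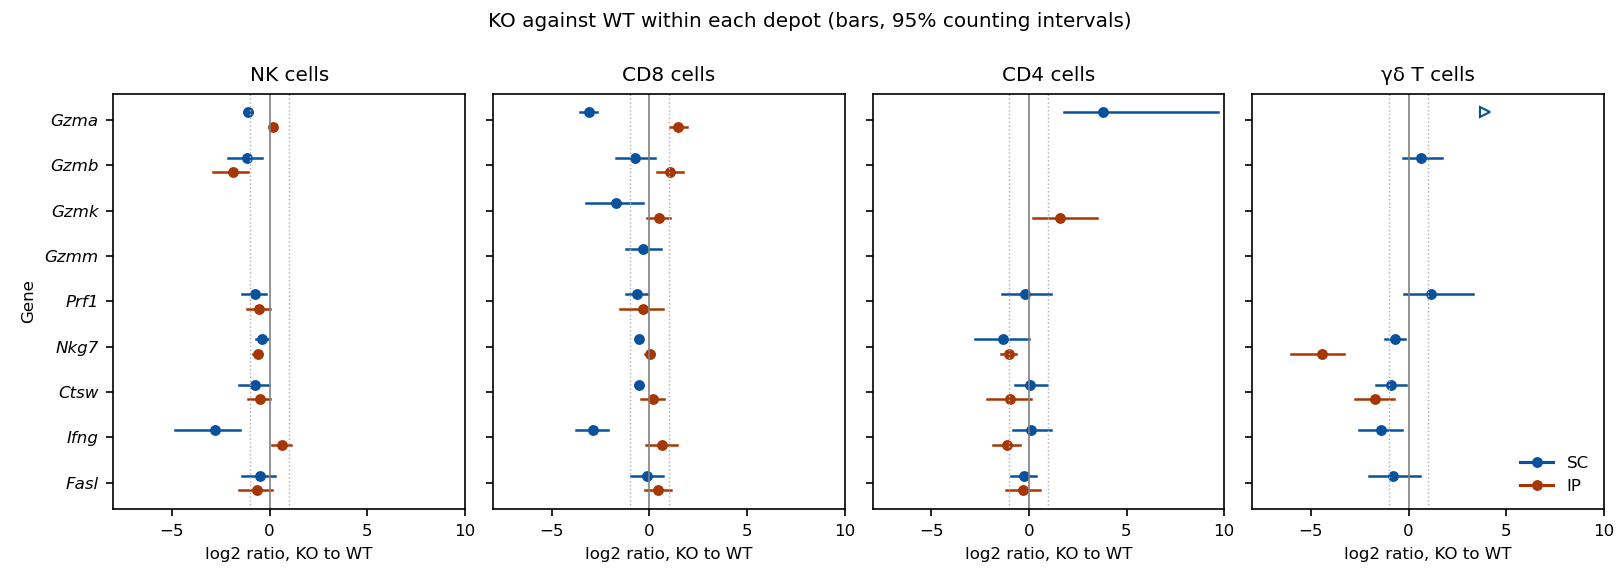
Log2 ratio of KO to WT (x axis) for each member that reached 20 UMIs over the pair of libraries, by class, with SC and IP as separate points, 95% counting intervals as bars and dotted lines at 2-fold. In SC CD8 cells all 9 members lie below 0, and open triangles mark a bound where 1 library had 0 UMIs.

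Summed over all kept cells of a library, 7 of 9 members stood lower in KO in both depots, and Gzmk and Gzmm did not. In SC the log2 ratios were -2.53 for Gzma, -1.06 for Gzmb, -1.16 for Prf1, -0.51 for Nkg7, -1.86 for Ifng, -0.66 for Fasl and -0.26 for Ctsw. In IP they were -1.49, -0.89, -2.18, -1.34, -0.67, -0.88 and -1.34 in the same order. Gzmk stood at -0.17 in SC and at 0.68 (0.20 to 1.17) in IP, and Gzmm at 0.27 and 0.40. Of 9 members 4 were lower by at least 2-fold in SC, against 9.28% of all genes, and 4 in IP, against 11.2%. NK cells were fewer in the KO libraries, at 0.563% against 2.17% in SC and 2.70% against 8.63% in IP. The number of NK cells and the level per NK cell both enter these sums, and so do those of the other classes. In SC, CD8 cells held 54.4% of the Nkg7 UMIs in WT and 75.6% in KO, and 58.2 and 69.2% of the Ctsw UMIs.

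Between depots, NK cells of WT differed little. In IP against SC, Gzma stood at -0.56 (-0.66 to -0.47), Prf1 at -0.61 (-0.95 to -0.27), Ifng at -0.44 (-0.84 to -0.01), Gzmb at -0.01 and Nkg7 at 0.13 (-0.04 to 0.30). Without the cell with most UMIs Ifng stood at 0.01. None of 7 members passed 2-fold, against 13.9% of all genes. In NK cells of KO, Gzma stood at 0.70 (0.49 to 0.92) and Ifng at 3.01 (1.71 to 5.10), the latter from 47 against 4 UMIs, and Gzma stood at 0.29 without the cell with most UMIs. There 1 of 7 members passed 2-fold, against 25% of all genes.

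In CD8 cells 6 of 9 members in WT and 8 of 9 in KO were higher in IP than in SC by at least 2-fold. In WT, Gzmk stood at 4.46 (3.57 to 5.55), Fasl at 3.49 (2.70 to 4.35), Gzmb at 3.36 (2.49 to 4.32), Ifng at 1.28 (0.54 to 1.95), Prf1 at 1.24 (0.41 to 1.98) and Nkg7 at 1.22 (1.05 to 1.39). Ctsw was at -0.08 (-0.53 to 0.32) and Gzmm at -0.42 (-3.85 to 1.36). Ifng stood at 0.94 with cells weighted equally, and Prf1 at 0.92 without the cell with most UMIs in each library. Gzma was at 0.87 (0.46 to 1.26), with all 219 SC UMIs in 1 cell. Over all genes 12.9% passed 2-fold in either direction, and the median was 1.24 against 0.09.

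In KO, the CD8 differences were larger, with Gzmk at 6.64 (lower bound 5.64), Gzma at 5.44 (5.01 to 5.92), Gzmb at 5.15 (4.44 to 5.94), Ifng at 4.78 (3.92 to 5.71) and Fasl at 4.06 (3.42 to 4.72). Nkg7 was at 1.79 (1.61 to 1.97) and Ctsw at 0.61 (0.15 to 1.02). Of 9 members 8 were higher by at least 2-fold, against 31.4% of all genes, and the median was 4.06 against 0.39. The 8 include Gzmm at 1.40 (-0.43 to 2.66), from 5 UMIs in IP and 32 in SC. Whether the depot difference itself differed between genotypes was not tested.

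The depots differed in the makeup of CD8 cells, as cells without a naive marker were 3.17 and 0.818% of them in SC and 21.6 and 46.2% in IP. A UMI of the NK markers was seen in 4.23 and 4.09% of CD8 cells in SC and in 13.5 and 38.5% in IP. Among cells with a naive marker, IP against SC in WT gave 3.94 for Gzmb, 3.31 for Fasl and 1.17 for Nkg7. In KO the same ratios were 5.66, 3.77 and 1.48. For KO, Ifng stood at 2.03 (-0.56 to 3.63), against 4.78 over all CD8 cells, Prf1 stood at 1.24 (-0.21 to 2.27) and Ctsw at 0.34 (-0.28 to 0.85).

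CD4 cells of IP carried Nkg7 and Ifng where those of SC nearly lacked them. In WT, Nkg7 stood at 6.10 (5.31 to 7.14), Ifng at 4.37 (3.57 to 5.34), Ctsw at 2.55 (1.60 to 3.51) and Fasl at 1.97 (1.16 to 2.73), so 4 of 4 were higher by at least 2-fold, against 18.8%. In KO, Nkg7 was at 6.38 (5.46 to 7.63), Ifng at 3.15 (2.37 to 3.93), Fasl at 1.96 (1.17 to 2.66) and Ctsw at 1.55 (0.45 to 2.47). Of 5 members 4 were higher by at least 2-fold, against 20.1%, and Gzma had 39 UMIs of 1 SC cell and none in IP. Cells without a naive marker were 8.66 and 11.3% of CD4 cells in SC and 63.6 and 55.2% in IP. Among these alone, Nkg7 stood at 4.17 in WT (2.80 to 6.68) and 4.69 in KO (3.27 to 7.23). Ifng stood at 3.04 in WT (1.62 to 5.57) and -0.35 in KO (-1.62 to 0.74). These cells numbered 21 in IP and 11 in SC of WT, and 16 and 36 in KO, so that each pair had a group under 20 cells. The SC side held 3 Nkg7 UMIs in each genotype and 3 Ifng UMIs in WT.

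Gamma delta T cells did not share one direction. In WT, Nkg7 stood at 1.18 (0.65 to 1.71), Fasl at 1.08, Ifng at 0.85 and Ctsw at 0.83, with 2 of 4 higher by at least 2-fold, against 12% of all genes. In KO, Nkg7 was at -2.52 (-4.12 to -1.45), Prf1 at -2.84, Gzma at -2.06, Gzmb at -1.45 and Ctsw at 0.05. There 4 of 5 were lower by at least 2-fold, against 19%, but the Gzma UMIs of each depot, 11 and 113, were in 1 cell each. The same cells held 6 of 7 Gzmb UMIs in IP and 26 of 48 in SC. That of SC also held 27 of 88 Nkg7 UMIs and 10 UMIs of the NK markers. Prf1 rested on 1 UMI in IP and 25 in SC.

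**Figure D4:**
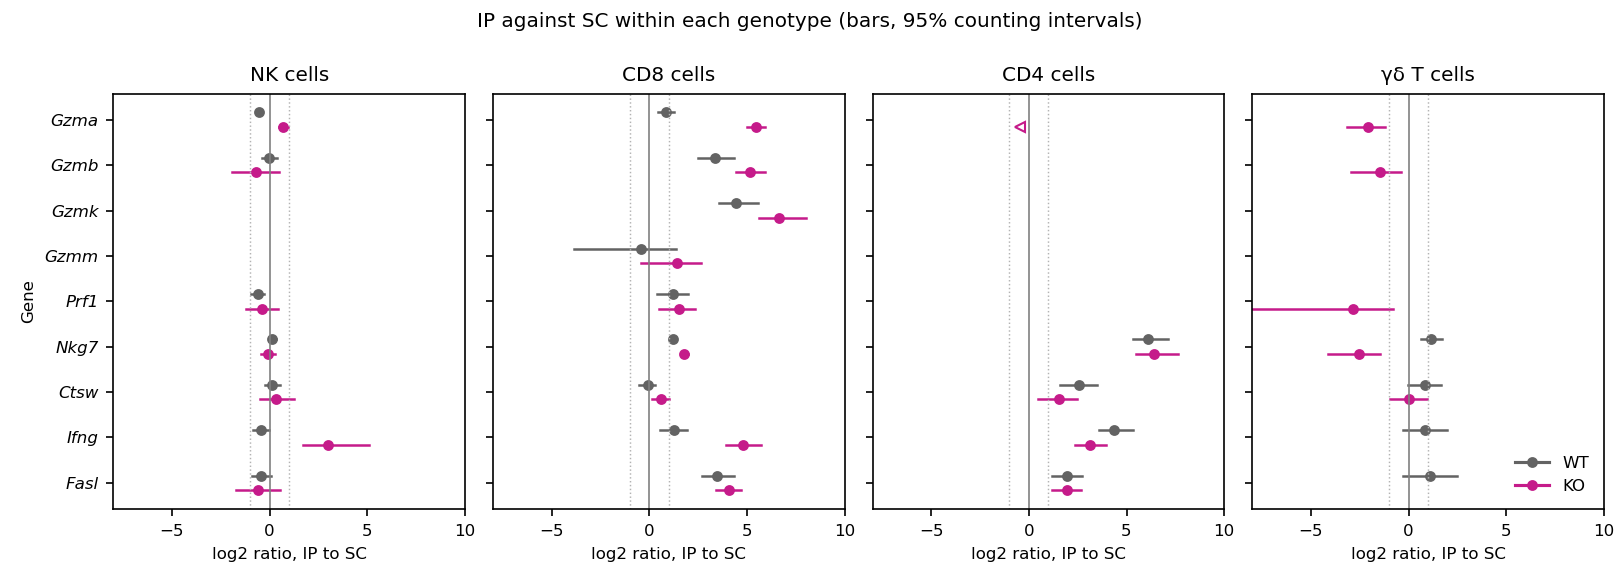
Log2 ratio of IP to SC (x axis) for each member that reached 20 UMIs over the pair of libraries, by class, with WT and KO as separate points and 95% counting intervals as bars. In CD8 cells of WT, Gzmk, Fasl and Gzmb lie furthest to the right (4.46, 3.49 and 3.36). In CD8 cells of KO these are Gzmk, Gzma and Gzmb (6.64, 5.44 and 5.15). CD4 cells show Nkg7 at 6.10 in WT and 6.38 in KO.

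Other genes of granule killing were followed in 8 lists of 61 genes. In CD8 cells of IP against SC, 16 of 49 compared genes were higher and 3 lower by at least 2-fold in WT, and 27 higher and 3 lower in KO. Over all genes 12.9 and 31.4% passed 2-fold in either direction. The granzyme inhibitors of the serpin family were higher in 3 of 3 in both genotypes, with Serpinb9, the inhibitor of granzyme B, at 1.96 in WT and 2.89 in KO. Of the effector transcription factors 5 of 8 were higher in WT and 9 of 9 in KO, with Tbx21 at 2.32 and 3.47 and Eomes at 2.01 and 2.51. The chemokine Ccl5 was at 2.64 and 3.53. Serpinb9, Tbx21, Eomes and Ccl5 were named after their values were seen.

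In KO against WT, 0 of 50 compared list genes were higher and 8 lower by at least 2-fold in CD8 cells of SC, against 5.28% of all genes in either direction. The 8 comprised 3 effector transcription factors, 2 death ligands, 2 chemokines and 1 cytokine receptor gene. In CD8 cells of IP 5 of 43 were higher and 4 lower, against 15.3%. In NK cells 2 of 35 were higher and 6 lower in SC, against 16.2%, and 4 of 43 higher and 0 lower in IP, against 20.9%. Only Tox in NK cells and Ltb in CD8 cells passed 2-fold in the same direction in both depots. The share of all genes that did so was not computed, so this count has no background to be read against. The KO NK cells behind Tox numbered 11 in SC and 14 in IP. Tox, a factor of NK and T cell differentiation, was at 1.31 (0.45 to 2.19) in SC and 1.12 (0.45 to 1.73) in IP. Ltb, the lymphotoxin beta chain, was at -1.57 (-1.76 to -1.38) in SC and -1.18 (-1.88 to -0.55) in IP.

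Some members had like profiles over the 13 combinations of class and library with at least 20 cells. Gzma correlated with Prf1 at r = 0.93 and with Gzmb at 0.92, Nkg7 with Ctsw at 0.92 and Ifng with Fasl at 0.93. Gzmk stood apart from Gzma at 0.14 and from Prf1 at 0.04. Among 6401 other genes, Klre1 was closest to Gzma (0.95) and Gzmb (0.98), Lrmda to Prf1 (0.96), Ccl5 to Nkg7 (0.91), Ly6c2 to Ctsw (0.94), Ctla2b to Fasl (0.96), Atp5h to Ifng (0.95), Txndc16 to Gzmk (0.85) and Pkp4 to Gzmm (0.84). Klre1 also served to define NK cells, and the 13 profiles share libraries and depth, so these values describe and do not test.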

How the data were processed

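The files hold the authors' UMI counts, not normalized, for each gene and barcode of 10x Chromium 3' v3 libraries, and per the file headers they come from Cell Ranger 7.0.0. The submitters' processing notes also name STAR 2.6 and mm10. Whether intronic reads were counted is not given in the sources used here, and intronic reads would raise long genes. The members and gene lists were chosen with earlier results of these data known.

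A barcode needed 200 or more genes and no more than 25% mitochondrial UMIs. Scrublet (scanpy 1.11.5, expected rate 5%) removed 14 doublets from KO SC and 3 from each other library. NK cells had at least 2 UMIs of Ncr1, Klrb1c and Klre1 with at most 1 of CD3 and 0 of Trac, T cells at least 2 of Cd3d, Cd3e and Cd3g, and CD8 and CD4 cells at least 1 coreceptor UMI. Barcodes meeting markers of more than 1 lineage among lymphoid, B, myeloid and stromal were in no class.

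UMIs were summed per class and library and divided by the class total (CPM), with exact Poisson intervals, and shares of cells had Clopper-Pearson intervals. Log2 ratios had 0.5 UMI added to each count and exact conditional binomial intervals at 95%, and were computed where a gene reached 20 UMIs over the pair of libraries and a class 20 cells in each. Counts of 0 were read against a floor of 3 counts. A 2-fold difference is the call, not a test. The ratio code was tested on simulated data. PCR duplicates were collapsed by UMI in the authors' counts, and the intervals cover counting error only. Gzmk overlaps Esm1 and Ctsw overlaps Fibp on the other strand in GENCODE, Gzmb shares 2.27% of its 25-base words with Gzmc, and Gm49751, which overlaps Ifng, was not a feature of the tables.

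The genes named were the members, the markers, Tert and the reporters, list genes past 2-fold in the same direction in both depots in NK or CD8 cells, and the genes most like each member in log2(CPM + 10) profile. Alternatives were other gates, filters, scaling, weighting, UMI minimums, the cell with most UMIs left out and thinning to 2000 UMIs. Classes of 10 to 19 cells, the removal of shared barcodes, the split of T cells by Ccr7 and Lef1 and the removal of the top Gzma cell in the comparison by Eomes were added after seeing the data. The scripts ran under Python 3.11.15 with matplotlib 3.10.9, pandas 2.3.3, scipy 1.17.1 and numpy 2.4.6.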

Additional observations from a re-analysis of the deposited data

Results flagged for a closer look

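Some log2 ratios of a member had opposite signs in the 2 depots or in the 2 genotypes, each with an interval that left out 0. None of these differences was tested, since each group is 1 library. In NK cells, Gzma in KO against WT stood at -1.10 in SC and at 0.17 in IP, and Ifng was -2.79 in SC and 0.65 in IP. The IP value of Gzma became -0.23 without the cell with most UMIs in each library. In CD8 cells, the Gzma ratio of KO to WT stood at -3.09 in SC and at 1.48 in IP, but the SC value rests on 1 WT cell. In IP against SC, Gzma in NK cells was -0.56 in WT and 0.70 in KO, and Ifng was -0.44 in WT and 3.01 in KO. These depot ratios use the same 4 libraries as the genotype ratios and are not independent of them. In gamma delta T cells, Nkg7 in IP against SC was 1.18 in WT and -2.52 in KO, with 19 cells in WT IP.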

How the results depend on the processing

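No paired analysis was possible because there was 1 library per group, so no replicate could be left out either. Of the log2 ratios of single members recomputed under the alternatives, 521 of 545 for IP against SC stayed within their interval and 24 moved. For KO against WT 538 of 557 stayed and 19 moved. Among these recomputed ratios no 2-fold difference changed sign. Gzma in SC CD8 cells stood at -3.09 in KO against WT. Without the cell with most UMIs in each library it had no ratio but the other direction, with 9 UMIs in KO and 0 in WT. No ratio could be given where an alternative left no UMIs in 1 library or at most 3 in both. With the cell holding most UMIs left out of each class and library, this held for Gzma in KO against WT in CD8 (9 and 0 UMIs), CD4 and gamma delta T cells of SC, and in IP against SC in WT CD8 (32 and 0 UMIs), KO CD4 and KO gamma delta T cells. It also held for Prf1 in KO gamma delta T cells (0 and 22 UMIs). With at least 2 coreceptor UMIs it held for Gzma in CD4 cells in both comparisons, and CD4 cells numbered 71 in WT SC, 155 in KO SC and 19 in KO IP.

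The median over the members for KO against WT became -1.26 in SC gamma delta T cells with cells weighted equally and -0.046 at a minimum of 10 or of 50 UMIs. It became -1.21 in IP NK cells with 1 UMI of the NK markers, and -4.41 in IP gamma delta T cells at 50 UMIs. For IP against SC it became 0.0011 in WT NK cells and 2.75 in KO CD4 cells without the cell with most UMIs, and 2.55 in WT CD4 cells at 10 UMIs. In KO NK cells it became -0.81 with 1 UMI of the NK markers and 0.34 at 50 UMIs, and in KO CD8 cells 4.85 with cells weighted equally. Of these medians, 98 of 104 and 99 of 104 did not move.

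Thinned to 2000 UMIs, the median share of cells with a UMI over the members was 42.9% in NK, 1.60% in CD8 and 0% in gamma delta T cells of WT SC, and 1.23% in CD8, 0.629% in CD4 and 3.54% in gamma delta T cells of KO SC. It was 36.2% in NK cells of WT IP, and 23.1% in CD8 and 0% in gamma delta T cells of KO IP. Depth sets these shares. The cause of the other moves was not tested. Leaving out shared barcodes, keeping doublets, or filtering at 500 genes or 10% mitochondrial UMIs moved no ratio beyond its interval.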

Other observations

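In WT SC, 392 of 2002 Gzma UMIs (19.6%) lay in 3 cells of no class. The cell with most of them, 291, had 16 UMIs of NK markers, 0 of CD3, 1 of Trdc and 15084 UMIs in all, with 17 of Gzmb and 13 of Prf1. It met the NK gate but for Trac, of which that gate allowed 0 UMIs.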
